A study of Mus musculus with 12 samples.

Results

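Bdnf, Ntf3, Gdnf, Artn, Nrtn, Cntf, Lif and Il6 encode secreted ligands that sensory neurons are known to make or to answer to. These 8 genes were taken by symbol from the 24490 genes listed in the expression table. RNA was sequenced from dorsal root ganglia (DRG), which hold the cell bodies of sensory neurons, of adult male C57Bl/6 mice, with 4 samples in each of 3 groups. No treatment or genetic change is given for any group. Intact samples were whole ganglia of 1 mouse, frozen at once. Dissociated samples pooled ganglia of 2 mice, which were digested for 30 min with dispase, collagenase and DNAse, triturated and left unsorted. MACS samples pooled cells of 8 mice, dissociated in the same way and then passed over a magnetic column that held back cells bound by a cocktail of antibodies to non-neuronal cells. The antigens of the cocktail are not named in the sources used here. A group therefore differs from the next in cell makeup and in handling at once, and each value is a mean over all cells of a sample.

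Neurotrophins such as brain-derived neurotrophic factor act through Trk receptor tyrosine kinases and the shared receptor p75, and keep sensory neurons alive and tune their sensitivity. Ligands of the GDNF family bind a GFRα co-receptor, which then engages the receptor tyrosine kinase Ret, and many small nociceptors depend on this pathway in adult life. Cytokines of the interleukin-6 family signal through gp130, the product of Il6st, to the JAK kinases and Stat3, and several of them are known for their induction after nerve injury.

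Expression is given as FPKM, the fragments of a gene divided by its transcript length and by the depth of the sample, which allows levels to be compared between genes. The spacing of the lowest FPKM values gave an estimated depth of 13900000 to 19900000 fragments per sample. Intact replicate 1 stood apart from the other intact samples, with squared differences of 128 to 156 times the sampling noise against 4.93 to 28.5 in 14 other pairs of the same group. Dissociated replicates 1 and 2 were the closest pair, at 1.76 times that noise. Neuronal marker genes were present in all 12 samples, with 3536 to 4902 FPKM summed over 8 of them. The sum over 8 Schwann cell genes was 2533 to 4580 FPKM in intact, 1938 to 3195 FPKM in dissociated and 520 to 1203 FPKM in MACS-sorted samples.

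Promoter windows of 250 bases before the annotated start were searched on both strands for the letters of 4 response motifs. All 8 genes had at least 1 window in RefSeq (build GRCm38.p6, the assembly that mm10 names), and 16 windows were searched. The motifs were AP-1 (TGANTCA), the cAMP response element CRE (TGACGTCA), NF-kB (a pattern narrower than the usual consensus, with fixed bases where that allows a choice) and STAT (TTCNNNGAA), which do not contain each other. They were present in 6.75%, 1.55%, 1.41% and 7.02% of all 32851 windows. The 5 windows with a match are printed below 5′ to 3′ on the strand of the gene with the match in capitals, since they belong to both ligand genes of measurable expression and to the cytokine genes Lif and Il6. The windows are chr19:12765633-12765882 (minus strand) for Cntf, chr2:109674450-109674699 and chr2:109676782-109677031 (plus strand) for the windows numbered 1 and 2 of Bdnf, chr11:4257318-4257567 (plus strand) for Lif and chr5:30012864-30013113 (plus strand) for Il6.
Cntf: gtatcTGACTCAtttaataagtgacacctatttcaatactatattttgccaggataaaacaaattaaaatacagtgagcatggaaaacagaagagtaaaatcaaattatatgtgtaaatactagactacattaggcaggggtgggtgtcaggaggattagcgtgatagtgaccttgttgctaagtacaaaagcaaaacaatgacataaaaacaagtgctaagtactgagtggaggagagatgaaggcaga
Bdnf, window 1: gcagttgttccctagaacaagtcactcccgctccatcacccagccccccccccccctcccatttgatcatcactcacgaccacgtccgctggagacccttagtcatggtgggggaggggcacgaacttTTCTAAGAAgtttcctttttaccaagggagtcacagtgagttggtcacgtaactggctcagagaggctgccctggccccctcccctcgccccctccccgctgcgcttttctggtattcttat
Bdnf, window 2: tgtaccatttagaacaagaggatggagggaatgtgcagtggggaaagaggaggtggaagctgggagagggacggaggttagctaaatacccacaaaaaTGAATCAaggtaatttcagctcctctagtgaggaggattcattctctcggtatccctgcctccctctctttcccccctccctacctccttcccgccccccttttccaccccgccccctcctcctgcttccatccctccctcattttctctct
Lif: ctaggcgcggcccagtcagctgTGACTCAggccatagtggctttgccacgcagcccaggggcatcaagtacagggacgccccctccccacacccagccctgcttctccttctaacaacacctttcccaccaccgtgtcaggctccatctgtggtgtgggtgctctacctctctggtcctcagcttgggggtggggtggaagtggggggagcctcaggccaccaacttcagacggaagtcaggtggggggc
Il6: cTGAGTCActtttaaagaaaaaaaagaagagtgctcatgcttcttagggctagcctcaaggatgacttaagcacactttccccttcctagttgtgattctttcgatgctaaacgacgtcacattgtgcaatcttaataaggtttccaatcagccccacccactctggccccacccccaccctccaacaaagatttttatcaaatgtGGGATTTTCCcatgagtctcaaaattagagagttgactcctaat
The AP-1 letters began 245 bases before the start in Cntf, 228 in Lif, 249 in Il6 and 152 in window 2 of Bdnf. The AP-1 pattern takes any base at N and is broader than the usual consensus, which has C or G there. That base was C in Cntf and Lif, G in Il6 and A in window 2 of Bdnf. The match in Bdnf is therefore outside the usual AP-1 consensus. The NF-kB letters lay 44 bases before the start of Il6, and the STAT letters 122 bases before the start in window 1 of Bdnf. No CRE match was found, and the windows of Ntf3, Gdnf, Artn and Nrtn held none of the 4 motifs. Bdnf had 7 of the 16 windows, and those not printed held none either. A gene with more windows has more places for a match. A match describes the letters of a window and does not show that a factor binds there.

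Of the 8 ligands, Bdnf and Cntf reached a mean of 1 FPKM, and the other 6 stayed below it. The 72 values of these 6 genes included 9 values of 0, and 70 of them were under 1 FPKM, with a highest value of 1.15 FPKM for Nrtn. In intact and dissociated ganglia the order of mean expression began with Cntf, Bdnf, Nrtn and Ntf3. Cntf lay above Bdnf and Bdnf above Nrtn in every sample of both groups, while Nrtn and Ntf3 overlapped. In MACS-sorted cells Bdnf came first and lay above all others, and the other ligands above 0 overlapped with their neighbours in the order.

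**Figure D1:**
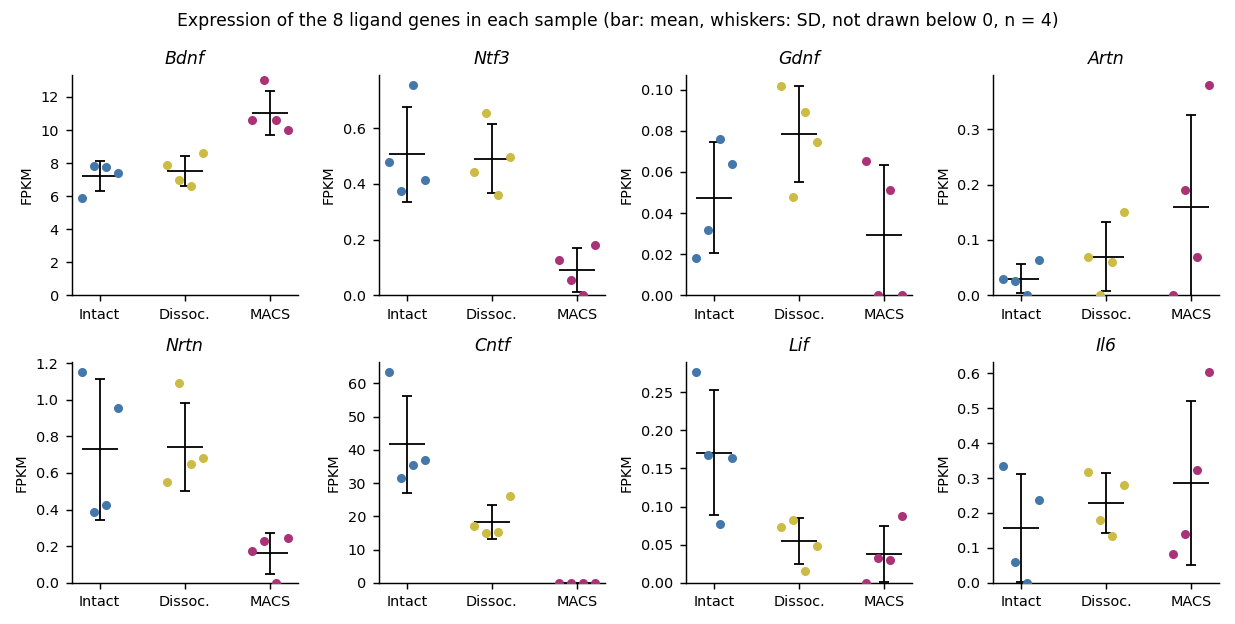
Expression of the 8 ligand genes in FPKM (y axis, a separate linear scale for each gene from 0) in intact, dissociated (Dissoc.) and MACS-sorted samples, 1 point per sample, with the mean as a bar and the SD as whiskers, which are not drawn below 0. The 4 MACS points of Bdnf (10.0 to 13.0 FPKM) lie above all other points of that gene, and those of Cntf lie at 0.

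Bdnf, the neurotrophin that signals through TrkB, was higher in MACS-sorted cells than in either other preparation. It lies on chromosome 2 of mm10 from 109674700 to 109727043, with 9 listed start sites. In intact replicates 1 to 4 it was measured at 5.90, 7.84, 7.77 and 7.39 FPKM, a mean of 7.23 ± 0.905 (SD, n = 4). It was 7.86, 6.99, 6.60 and 8.59 FPKM in dissociated ganglia, a mean of 7.51 ± 0.893 (SD, n = 4). It was 10.6, 13.0, 10.6 and 10.0 FPKM in MACS-sorted cells, a mean of 11.1 ± 1.31 (SD, n = 4). Each sorted sample exceeded every dissociated and intact sample, while intact and dissociated samples overlapped. An estimated 402.1 to 848.4 fragments per sample stood behind these values.

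The ratio of mean Bdnf expression was 1.47 for MACS-sorted against dissociated samples. The log2-fold change, taken on log2(FPKM + 0.1), was 0.55 (standard error, SE, 0.11, adjusted p = 0.0029 by limma), and a two-sided exact permutation test of the means gave p = 0.0286, the smallest that 4 samples against 4 allow. A gene was called when its adjusted p was under 0.05, its log2 ratio of mean FPKM beyond 0.5 and its higher mean over 5 FPKM. In this comparison 20.7% of 12038 genes tested were called, with 8.15% higher and 12.5% lower, and 13.8% of the 17657 genes above 0 in any sample were higher without overlap. Bdnf was called, but its ratio lay close to the limit. Without MACS replicate 2, the sample with the highest level, the log2 ratio of means was 0.47 and the gene was no longer called, at an adjusted p of 0.0058 by limma.

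Against intact ganglia, Bdnf was 1.53 times as high in MACS-sorted cells, with a log2-fold change of 0.61 (SE 0.13, adjusted p = 0.0049 by limma), and was called, as were 18.3% of 12234 genes (7.54% higher). Without overlap, 11.3% of 17980 genes were higher in MACS-sorted than in intact samples. Dissociation alone gave Bdnf a log2-fold change of 0.06 (SE 0.12, adjusted p = 0.76 by limma), and the exact permutation p was 0.686. These comparisons share their samples in pairs.

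Markers of small-diameter nociceptors moved with Bdnf in the sorted cells. Of 9 such genes, 8 were called higher in MACS-sorted than in dissociated samples and 0 lower, with a median log2-fold change of 0.79 against -0.04 over all genes tested. Their summed level was 2442 to 2581 FPKM in dissociated and 2859 to 3984 FPKM in MACS-sorted samples, and none of the 9 was at 0. All 7 red blood cell genes were also called higher, and the sum over their listed entries was 112 to 400 FPKM in dissociated and 1678 to 15360 FPKM in MACS-sorted samples. With the red blood cell genes removed and samples rescaled, the log2-fold change of Bdnf was 0.59 (adjusted p = 0.0012 by limma). Of the 8 neuronal marker genes, 2 were called higher and 1 lower in MACS-sorted than in dissociated samples, with a median log2-fold change of 0.23. Against intact ganglia, 5 of 9 nociceptor genes were called higher and 0 lower, with a median of 0.70. Of the neuronal marker genes 4 were called higher and 1 lower there, with a median of 0.59. In such bulk samples, a change in the number of cells of a type and a change in RNA per cell cannot be told apart.

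The 3 genes whose log2 expression followed Bdnf most closely across the 12 samples were Sfpq (Pearson r = 0.983), Metap1 (r = 0.978) and Cxxc4 (r = 0.959). Sfpq, a splicing factor, had means of 31.2 FPKM in intact, 31.4 FPKM in dissociated and 40.8 FPKM in MACS-sorted samples. The points fall in 3 groups, so these coefficients describe a shared pattern of group levels.

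Ntf3, which encodes neurotrophin-3, the main ligand of TrkC, was low in ganglia and lower still after sorting. It lies on chromosome 6 from 126101412 to 126166744. It was measured at 0.479, 0.375, 0.755 and 0.415 FPKM in intact and 0.444, 0.656, 0.362 and 0.498 FPKM in dissociated replicates 1 to 4. It was 0.129, 0.0556, 0 and 0.18 FPKM in MACS-sorted replicates. No MACS-sorted sample reached the lowest intact or dissociated sample, and these 2 groups overlapped with each other. The estimated fragments summed to 48.8 over the intact, 44.2 over the dissociated and 6.9 over the MACS-sorted samples.

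Ntf3 fell under the filter of a mean of 1 FPKM, so it carries no call. In a fit of all genes above 0, in which 38.2% of 17657 genes had an adjusted p under 0.05, its log2-fold change for MACS-sorted against dissociated samples was -1.71 (SE 0.34, adjusted p = 0.0035 by limma). It stayed under 0.05 with each sample left out, with adjusted p-values from 0.0016 to 0.013 by limma, and after quantile normalization (-1.22, adjusted p = 0.036). The exact permutation p was 0.0286. Lower without overlap in this comparison were 25.0% of genes. Against intact ganglia the change was -1.73 (adjusted p = 0.0054 by limma, where 30.5% of 17980 genes were under 0.05 and 22.0% were lower without overlap), and after quantile normalization it was -0.92 (adjusted p = 0.14). Dissociated and intact samples gave -0.02 (adjusted p = 0.96 by limma, where 15.9% of 18061 genes were under 0.05). The mean of Ntf3 in MACS-sorted samples, 0.0910 FPKM, lay under the 0.1 FPKM added before the logarithm. The size of its change on sorting therefore depends on that constant, as do the sizes given below for Nrtn, Lif and Il6. No other constant was tried for these genes.

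Among the GDNF family ligands, Nrtn showed a difference after sorting, and Gdnf and Artn rested on a handful of fragments. Nrtn encodes neurturin, the ligand that prefers the co-receptor GFRα2, and lies on chromosome 17 from 56751325 to 56757530. It was measured at 1.15, 0.385, 0.423 and 0.957 FPKM in intact, 0.549, 1.09, 0.648 and 0.683 FPKM in dissociated and 0.175, 0.226, 0 and 0.244 FPKM in MACS-sorted replicates 1 to 4. All MACS-sorted samples lay under all others, and the intact samples spanned the dissociated ones.

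The estimated fragments of Nrtn summed to 43.8, 43.2 and 8.0 in intact, dissociated and MACS-sorted samples. Without the filter, its log2-fold change for MACS-sorted against dissociated samples was -1.80 (SE 0.41, adjusted p = 0.0076 by limma), and the exact permutation p was 0.0286. After quantile normalization it was -1.25 (adjusted p = 0.086), past the threshold no longer. Against intact ganglia it was -1.69 (adjusted p = 0.026 by limma), but 2 of 8 fits with a sample left out exceeded 0.05, up to 0.071, and quantile normalization gave -0.87 (adjusted p = 0.29).

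Gdnf, the founding ligand of the family, which binds GFRα1, lies on chromosome 15 from 7811011 to 7837575. It was measured at 0.0181, 0.0320, 0.0759 and 0.0639 FPKM in intact, 0.102, 0.0478, 0.0893 and 0.0747 FPKM in dissociated and 0.0652, 0, 0.0514 and 0 FPKM in MACS-sorted replicates. These values stood for 0 to 6.3 estimated fragments per sample, and the groups overlapped. The exact permutation p for MACS-sorted against dissociated samples was 0.0857.

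Artn encodes artemin, the ligand of GFRα3, and lies on chromosome 4 from 117926160 to 117929763. It was measured at 0.0301, 0.0267, 0 and 0.0645 FPKM in intact, 0.0688, 0, 0.0597 and 0.151 FPKM in dissociated and 0, 0.19, 0.0694 and 0.379 FPKM in MACS-sorted replicates. MACS-sorted replicate 4 was highest, and MACS-sorted replicate 1 was at 0. Its adjusted p-values without the filter were 0.5, 0.46 and 0.22 by limma for MACS-sorted against dissociated, dissociated against intact and MACS-sorted against intact samples. A difference in Gdnf or Artn was not detectable at this depth.

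**Figure D2:**
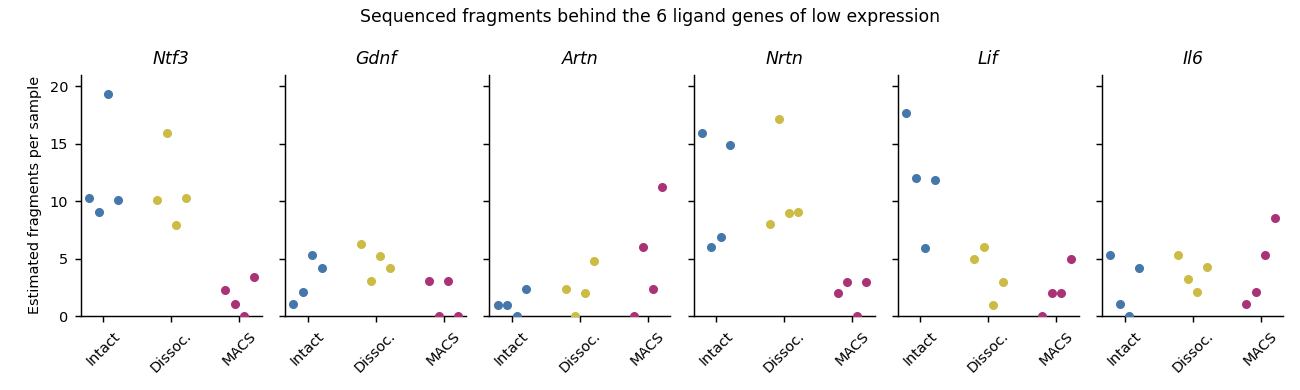
Estimated sequenced fragments per sample (y axis, linear, 1 scale for all genes) for the 6 ligand genes under a mean of 1 FPKM, 1 point per sample in intact, dissociated (Dissoc.) and MACS-sorted groups. No sample exceeds 19.3 fragments, and the MACS points of Ntf3 and Nrtn lie under those of the other groups.

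Cntf, the ciliary neurotrophic factor, known as a product of myelinating Schwann cells, was the highest of the 8 ligands in intact ganglia, fell on dissociation and had a listed value of 0 in all sorted samples. It lies on chromosome 19 from 12763528 to 12765632 and has 1 annotated transcript of 1073 nt. Intact replicates 1 to 4 held 63.3, 31.4, 35.3 and 36.8 FPKM, a mean of 41.7 ± 14.6 (SD, n = 4). It was 17.0, 15.1, 15.3 and 26.0 FPKM in dissociated replicates, a mean of 18.3 ± 5.20 (SD, n = 4). All dissociated samples lay under all intact samples. Intact replicate 1 was far above the rest of its group, whose mean was 34.5 ± 2.80 (SD, n = 3) without it.

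For dissociated against intact samples, the ratio of mean Cntf expression was 0.44 and the log2-fold change -1.16 (SE 0.24, adjusted p = 0.013 by limma). Cntf was called lower, as were 2.76% of 12392 genes, with 4.29% called higher, 7.04% in either direction and 11.0% of 18061 genes lower without overlap. The exact permutation p was 0.0286. Without intact replicate 1 the log2-fold change was -0.94 (adjusted p = 0.0036 by limma), and without dissociated replicate 4 it was -1.34 (adjusted p = 0.015 by limma). Without the filter on low values, the adjusted p rose to 0.051 when dissociated replicate 3 was left out.

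In MACS-sorted cells Cntf was listed at 0 in 4 of 4 samples, where 1 fragment would have been worth 0.065 to 0.0824 FPKM. Against this group no fold change is given. The gene passed the filter in these comparisons through the other group alone, and its fitted change of -7.49 for MACS-sorted against dissociated samples moved between -10.8 and -4.24 with the pseudocount. An estimated 225.3 to 366.6 fragments stood behind Cntf in each dissociated sample.

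A listed value of 0 need not be a count of 0. In the table Cntf overlaps 1 other entry, Zfp91Cntf, which spans Cntf and its neighbour and was listed at 0 in all 12 samples. Zfp91 itself, the upstream neighbour, a zinc finger gene, was at 19.7 to 21.5 FPKM in MACS-sorted and 20.3 to 24.3 FPKM in dissociated samples. Of 5806 genes with at least 10 FPKM in dissociated samples, 8 had only zeros in MACS-sorted samples, and 8 of 8 overlapped another listed gene, against 20.7% of the 5806. In the opposite direction, 6 of 6 genes at 0 in every dissociated sample overlapped another listed gene. Whether the zeros of Cntf are failed estimates was not tested.

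Schwann cell genes were still measured in the sorted cells, with 1 value of 0, for Mag in MACS-sorted replicate 2. MACS-sorted samples kept 3.17% (Cldn19, a junction protein of myelin) to 55.6% (Mbp, myelin basic protein) of the dissociated level, with a median of 8.14%, and 7 of 8 were called lower and 0 higher. The fibroblast genes kept a median of 3.76%, and 6 of 7 were called lower, with a sum of 7.62 to 33.0 FPKM in MACS-sorted samples. No gene of either list was at 0 in all sorted samples. Between intact and dissociated samples, 0 of 8 Schwann cell genes and 5 of 7 fibroblast genes were called lower. The log2-fold changes of the Schwann cell genes were all below 0, from -0.59 to -0.21. Their median was -0.36 and that of the fibroblast genes -1.04, against 0.01 over all genes tested. The summed fibroblast level went from 504 to 950 FPKM in intact to 177 to 348 FPKM in dissociated samples. All 7 macrophage genes were lower in dissociated than in intact samples without overlap, with a median log2-fold change of -1.11 and sums of 15.3 to 27.7 FPKM in intact and 5.98 to 10.9 FPKM in dissociated samples, and 1 of them was called. Intact replicate 1 had the highest Cntf, Schwann cell and fibroblast levels of its group. It was also highest in the summed nociceptor, large-diameter neuron, satellite glia, macrophage and red blood cell genes. In the summed neuronal marker, endothelial, pericyte and neutrophil genes it was not. Its FPKM over all genes summed to 345341, against 283676 to 293648 in the other intact samples. The part of Schwann cells, fibroblasts, macrophages or other cells in the difference in Cntf was not tested.

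**Figure D3:**
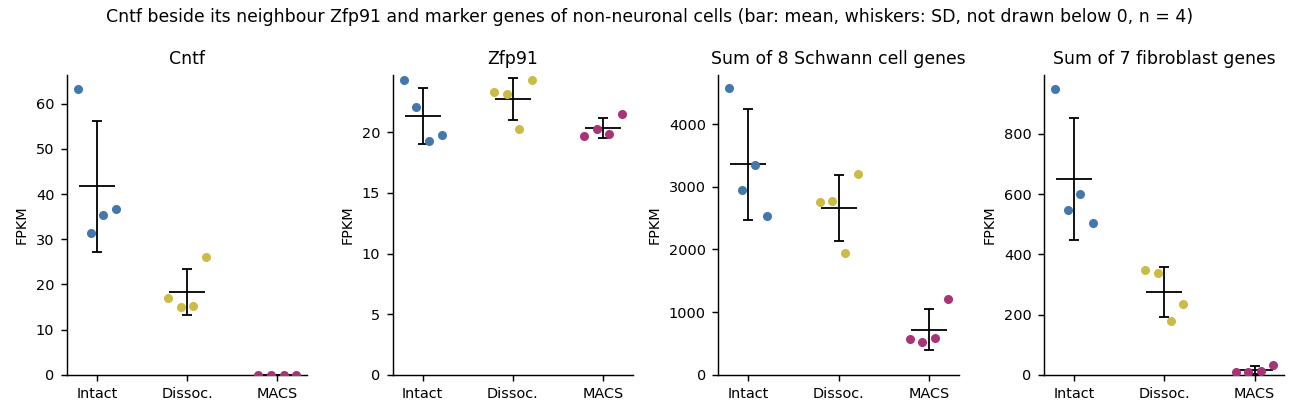
Expression in FPKM (y axes, linear from 0) of Cntf, of its neighbour Zfp91 and of the sums of 8 Schwann cell and 7 fibroblast genes, 1 point per sample, with the mean as a bar and the SD as whiskers, not drawn below 0. Cntf is at 0 in all 4 MACS samples, where Zfp91 is at 19.7 to 21.5 FPKM and the Schwann cell sum at 520 to 1203 FPKM.

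The genes with the pattern most like that of Cntf over the 12 samples were Tmed1 (Pearson r = 0.997), Rarres2 (r = 0.996) and Glt8d2 (r = 0.995). Each of these 3 had only zeros in MACS-sorted samples, as had Cntf, so the coefficients describe these shared zeros and the group levels. Rarres2 is also among the 8 genes above that were listed at 0 and overlapped another listed gene.

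Lif, leukaemia inhibitory factor, lies on chromosome 11 from 4257568 to 4272514. Levels of 0.276, 0.167, 0.0774 and 0.163 FPKM in intact, 0.0737, 0.0829, 0.0155 and 0.0486 FPKM in dissociated and 0, 0.0327, 0.0297 and 0.088 FPKM in MACS-sorted replicates 1 to 4 were measured. The intact samples were highest on average, but intact replicate 3 overlapped with both other groups. The estimated fragments summed to 47.4, 15.0 and 9.0. For dissociated against intact samples the log2-fold change without the filter was -0.78 (adjusted p = 0.069 by limma) and the exact permutation p was 0.0571. For MACS-sorted against intact samples it was -0.96 (adjusted p = 0.028 by limma), but 6 of 8 fits with a sample left out exceeded 0.05, up to 0.076, and quantile normalization gave -0.21 (adjusted p = 0.63).

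Il6, which encodes interleukin-6, lies on chromosome 5 from 30013161 to 30019968. Levels of 0.334, 0.0596, 0 and 0.237 FPKM in intact, 0.318, 0.179, 0.133 and 0.281 FPKM in dissociated and 0.0810, 0.14, 0.322 and 0.603 FPKM in MACS-sorted replicates were measured. The groups overlapped throughout, over at most 8.5 estimated fragments in a sample. Without the filter its adjusted p-values were 0.9, 0.45 and 0.45 by limma for MACS-sorted against dissociated, dissociated against intact and MACS-sorted against intact samples, and only the last passed under quantile normalization (1.51, adjusted p = 0.032). A difference in Il6 between dissociated and intact samples was not detectable at this depth.

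A list of 9 other ligands of these families, among them Osm, Il11 and Ctf1, was as low. Their highest value was 1.61 FPKM, 8 of 9 had a mean under 1 FPKM in every group and 0 of 9 were tested in any comparison. Ctf1, which encodes cardiotrophin-1, was the exception, at 0.915 to 1.61 FPKM in intact, 0.362 to 0.877 FPKM in dissociated and 0.44 to 0.796 FPKM in MACS-sorted samples.

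The neurotrophin receptor genes Ntrk2, Ntrk3, Ngfr and Sort1, at 1.75 to 216 FPKM, were lower after sorting, where Bdnf was higher. These 4 were called lower in MACS-sorted than in dissociated samples, with a median log2-fold change of -1.59 against -0.04 over all genes tested. The calls held under median-ratio scaling, quantile normalization, and removal of the red blood cell genes with rescaling to equal totals. Ntrk2, which encodes TrkB, the receptor of Bdnf, was at 40.2, 39.5, 35.4 and 35.2 FPKM in dissociated and 1.75, 3.06, 4.85 and 3.82 FPKM in MACS-sorted replicates, a log2-fold change of -3.53 (SE 0.25, adjusted p = 5.3e-06 by limma). These values cover the whole gene, and its isoforms were not separated here. The paper reports that the full-length and the truncated isoform were both depleted on sorting, the truncated one more strongly. Ntrk3, the receptor of neurotrophin-3, changed by -1.46, Ngfr, the shared receptor p75, by -1.30, and Sort1, the co-receptor sortilin, by -1.73. On dissociation these 4 were called higher, by 0.52 to 0.62, and 3 of 4 after removal of the red blood cell genes and rescaling to equal totals. In that comparison 3 of 8 large-diameter neuron genes and 3 of 8 satellite glia genes were also called higher and 0 lower. Their sums were 595 to 777 and 1902 to 2253 FPKM in intact samples. Endothelial genes rose too, with 4 of 6 called higher, 0 lower and a median log2-fold change of 1.07. On sorting, markers of large-diameter neurons and satellite glia moved with the receptors, with 6 of 8 and 7 of 8 called lower and 0 higher. So did Schwann cell and fibroblast genes, with 7 of 8 and 6 of 7 called lower and 0 higher, while 0 of 6 endothelial genes were called. The sums of the large-diameter neuron and satellite glia lists were 840 to 1038 and 2443 to 3015 FPKM in dissociated samples. In MACS-sorted samples they were 92.3 to 174 and 107 to 242 FPKM, with no gene at 0 in all sorted samples. The part of these cell types in the receptor levels was not tested.

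Among the 5 receptors of the GDNF family, 2 were called higher and 1 lower on sorting. Ret, the shared tyrosine kinase, was at 131, 129, 139 and 129 FPKM in dissociated and 210, 254, 225 and 193 FPKM in MACS-sorted replicates, without overlap, a log2-fold change of 0.74 (SE 0.09, adjusted p = 0.00011 by limma). Gfra2, the co-receptor of neurturin, was at 60.0, 58.6, 52.3 and 51.4 FPKM against 117, 174, 139 and 126 FPKM, a change of 1.31 (SE 0.12, adjusted p = 2.3e-05 by limma). Gfra1 (-0.06, adjusted p = 0.55) and Gfra3 (0.29, adjusted p = 0.34) did not pass the test by limma. Gfra4 was called lower (-0.50), and this call was lost under all 3 other scalings. In dissociated against intact samples 0 of 5 were called.

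Receptors of the IL-6 family divided. Cntfr, the binding subunit for Cntf, fell from 34.6, 35.1, 34.6 and 28.3 FPKM in dissociated to 10.0, 12.3, 10.7 and 9.96 FPKM in MACS-sorted replicates, a log2-fold change of -1.62 (SE 0.10, adjusted p = 2.1e-06 by limma). Osmr, the oncostatin M receptor, rose from 8.83, 9.15, 7.62 and 8.77 FPKM to 36.4, 16.3, 17.1 and 20.2 FPKM, a change of 1.30 (SE 0.22, adjusted p = 0.0011 by limma). The shared subunits remained abundant in all groups, with Il6st at 61.1 to 151 FPKM and Lifr at 69.7 to 143 FPKM. Neither was called in MACS-sorted against dissociated samples (0.25 and 0.44), but Lifr had an adjusted p of 0.006 by limma. Against intact ganglia both were called higher in MACS-sorted samples. Mean Il6st was 127 FPKM in MACS-sorted and 78.8 FPKM in intact samples, and mean Lifr 124 and 86.4 FPKM. Il6ra, the binding subunit of interleukin-6, was at or under 1.20 FPKM in every sample and was not tested. For MACS-sorted against dissociated samples 1 of the 5 tested was called higher and 2 lower, the second being Il11ra1. Under the other scalings 1 to 2 were called in each direction. Against intact ganglia 3 of 5 were called higher and 2 lower in MACS-sorted samples, and 2 higher and 2 lower under quantile normalization. On dissociation Cntfr was called higher (0.54, adjusted p = 0.0046 by limma), a call lost under quantile normalization, and Il11ra1, the interleukin-11 receptor, lower (-1.08, adjusted p = 0.017 by limma).

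**Figure D4:**
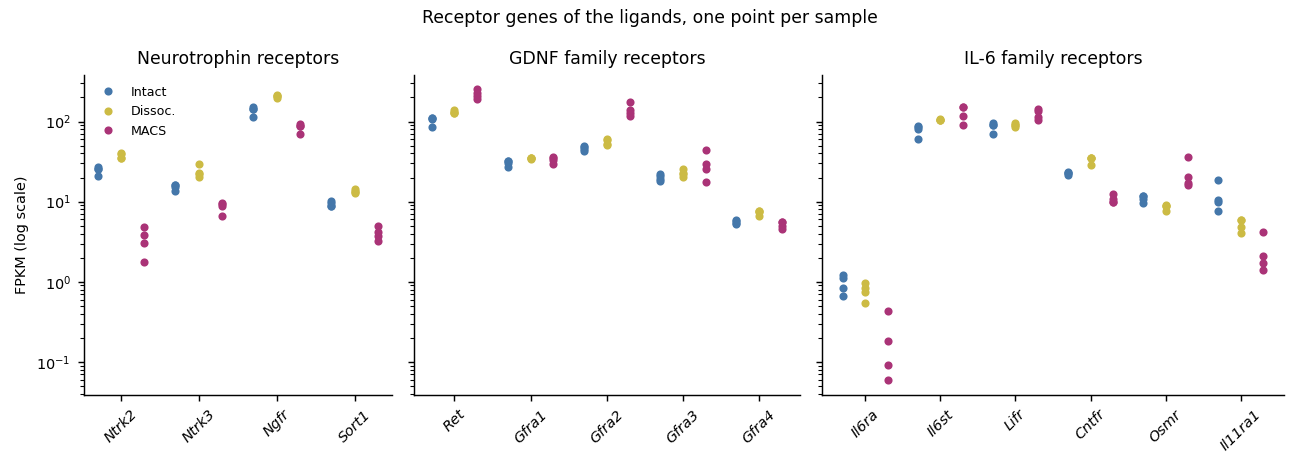
Expression of the receptor genes of the 3 ligand families in FPKM (y axis, log scale), 1 point per sample, by group (Dissoc. stands for dissociated). Ntrk2 in MACS-sorted cells (1.75 to 4.85 FPKM) lies far below the dissociated samples (35.2 to 40.2 FPKM), while Gfra2 (117 to 174 FPKM) lies above them.

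Downstream of these receptors, 1 of 9 JAK-STAT3 genes was called on sorting, Cish (lower), and 2 on dissociation, Socs3 and Cish (both higher). Socs3, the feedback inhibitor of gp130 signalling, was at 4.02, 3.63, 2.78 and 2.66 FPKM in intact and 11.2, 12.4, 38.6 and 56.1 FPKM in dissociated replicates, a log2-fold change of 2.83 (SE 0.49, adjusted p = 0.0066 by limma). It was at 8.81, 10.0, 14.7 and 15.8 FPKM in MACS-sorted replicates, also above all intact samples (1.86, adjusted p = 0.00016 by limma). Stat3 was called higher only against intact ganglia (0.68, adjusted p = 0.0015 by limma), a difference between comparisons that was not tested.

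Immediate early genes, which encode factors induced within minutes of a stimulus, rose on dissociation while the ligands Bdnf and Il6 did not pass the test. Of 10 tested, 7 were called higher and 0 lower, with a median log2-fold change of 2.12 against 0.01 over all genes tested. After removal of the red blood cell genes and rescaling to equal totals, 6 were called higher. For MACS-sorted against dissociated samples 1 was called higher and 5 lower (4 lower under median-ratio scaling and after that removal and rescaling). Fos, a subunit of AP-1, was at 4.19, 2.07, 2.67 and 3.43 FPKM in intact and 55.6, 57.7, 191 and 314 FPKM in dissociated replicates. Sorted replicates 1 to 4 held 39.2, 18.7, 47.8 and 52.5 FPKM. Dissociated replicates 3 and 4 were higher than 1 and 2 in both Fos and Socs3. Of 12 inflammatory early genes, 5 were tested and 1, Zfp36, an RNA-binding protein that destabilises cytokine transcripts, was called higher (2.72, adjusted p = 0.013 by limma).

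**Figure D5:**
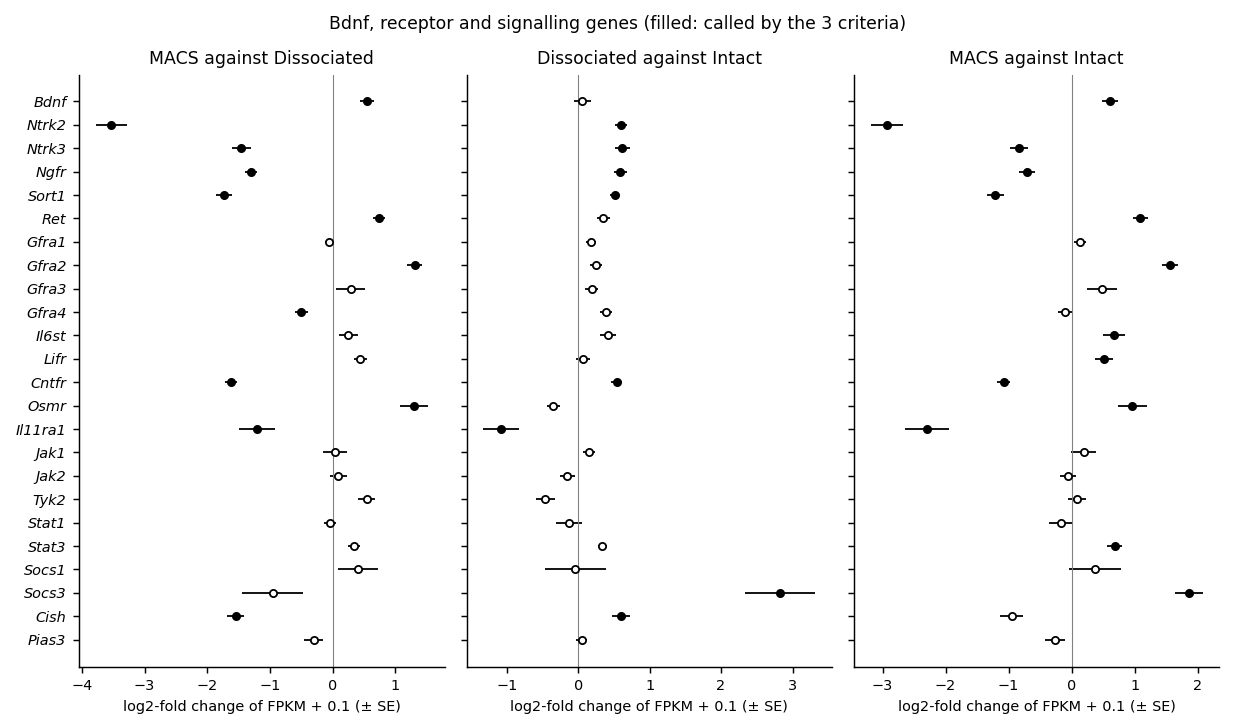
Log2-fold change of FPKM + 0.1 (x axis, with a separate scale for each comparison) for Bdnf, receptor and signalling genes in the 3 comparisons, with the standard error as bars; filled points were called by the 3 criteria. Bdnf (0.55) and Ntrk2 (-3.53) lie on opposite sides of 0 in MACS against Dissociated.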

How the data were processed

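The authors aligned reads of polyA-selected RNA to mm10 with TopHat2, merged lanes with SAMtools and estimated expression with Cufflinks 2.1.1. The deposited values are FPKM for 24490 genes, and read counts were not used here. Samples were grouped by their labels. Values were transformed to log2(FPKM + 0.1) and each pair of groups was fitted with limma 3.58.1 (R 4.3.3, trend in the variance, two-sided), with Benjamini-Hochberg adjustment over the genes averaging 1 FPKM or more in the 8 samples concerned. CuffDiff, which the study used, needs aligned reads. Members under that filter were read from a fit of all genes above 0 in any sample. Single levels were compared by exact permutation tests. Fragments per sample were estimated from the spacing of the lowest values of 14525 genes, with a fragment length of 200 nt, and cover counting only. The limma fit and the fragment estimate were tested on simulated data. The members and gene lists were chosen with earlier results of these data known. Some genes are not reported here and were left out of the lists, although they remain in the fits. The text names the members, list genes and the 3 genes most correlated with each member of at least 1 FPKM. Alternatives covered the pseudocount (1 and 0.01), filter, scaling, trend, sample set, replicate block and left-out replicates. The study describes the samples of a group as biological replicates.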

Additional observations from a re-analysis of the deposited data

Results flagged for a closer look

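Of 71 groups of 4 samples examined over 24 genes, 5 held a sample whose gap to the others was large against the range of its group. Chance gives about 1 in 20 such groups. Cntf was at 63.3 FPKM in intact replicate 1, against 31.4 to 36.8 FPKM in the other intact samples, and at 26.0 FPKM in dissociated replicate 4, against 15.1 to 17.0 FPKM. Ret was at 86.6 FPKM in intact replicate 1, against 109 to 110 FPKM. Dissociated replicate 4 was lowest in its group for the receptors Gfra4, at 6.54 FPKM against 7.50 to 7.67 FPKM, and Cntfr, at 28.3 FPKM against 34.6 to 35.1 FPKM. The causes were not tested.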

How the results depend on the processing

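With 1 choice changed at a time, the number of ligands called moved in 1 case. For MACS-sorted against dissociated samples it was 2, and between 1 and 2 with each replicate left out, with 1 without MACS replicate 2, where the ratio of means of Bdnf no longer passed. The other ligand in this count is Cntf, whose zeros in MACS-sorted samples are in doubt, so the count says nothing of its stability. Without the filter, leaving out dissociated replicate 3 also ended the call of Cntf for dissociated against intact samples (adjusted p = 0.051 by limma), and leaving out MACS replicate 2 that of Bdnf. The log2-fold change of Bdnf in this comparison lay between 0.47 and 0.65 over 20 alternatives, with adjusted p-values by limma from 0.00062 to 0.012. That of Cntf for dissociated against intact samples lay between -1.34 and -0.94, with adjusted p-values from 0.0036 to 0.04. Averaging dissociated replicates 1 and 2, an alternative added after the data were seen, gave -1.11 (adjusted p = 0.038). Quantile normalization moved the median of all genes to 0.10 for MACS-sorted against dissociated and 0.13 for MACS-sorted against intact samples, and changed the split of calls from 981 higher and 1505 lower to 1382 and 1285 in the first and from 922 and 1313 to 1248 and 1183 in the second. For dissociated against intact samples the split went from 531 and 342 to 421 and 408. It was 343 and 428 with red blood cell genes removed and every sample rescaled to the same total FPKM. The removal and the rescaling were not run apart. Red blood cell genes summed to 266 to 737 FPKM in intact and 112 to 400 FPKM in dissociated samples. All genes summed to 345341 FPKM in intact replicate 1 and to 283676 to 293648 FPKM in the other intact samples. Estimates for the 6 low ligands rest on at most 19.3 fragments in a sample.

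Samples of the same replicate number shared little deviation, with correlations between -0.14 and 0.07. This does not settle whether they were prepared together, which the labels do not state. With the replicate block, Cntf for dissociated against intact samples had a log2-fold change of -1.16 (adjusted p = 0.02 by limma) and was called, and Bdnf had a log2-fold change of 0.55 (adjusted p = 0.011 by limma) for MACS-sorted against dissociated samples.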
